A study of Mus musculus with 12 samples.

Results

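The interferon stimulated genes of the liver described here are Ifit1, Ifit2, Ifit3, Isg15, Irf7, Usp18, Rsad2, Oasl2, Gbp2 and Igtp, 10 genes chosen by name among the 39429 probes of a mouse expression array. Probes were assigned to these genes through their RefSeq accessions. A gene entered the tests where a probe was well above the background of the array in all 12 mice, a flag set by the scanner software, and 9 of the 10 genes passed. Ifit2 was the exception, with a signal well above background on 11 of 12 arrays and not in Floxed mouse 2. In all, 16915 genes were tested.

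Livers came from 6 LKO mice and 6 littermate Floxed mice, all of them C57BL/6 males aged 30 weeks that were fed chow with 20% casein. Both genotypes carried Phgdh flox/flox, the loxP-flanked gene of the first enzyme of serine synthesis. LKO mice carried in addition Cre under the albumin promoter, which acts in hepatocytes, so that other liver cells kept the gene. RNA of the whole liver was hybridized with 1 mouse per array, and in such bulk RNA fewer cells of a type and less RNA per cell cannot be told apart.

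Interferons are secreted by cells that sense foreign nucleic acid or by activated lymphocytes, and they act on neighboring cells through surface receptors and Janus kinases. Type I interferons activate a complex with Stat2 and Irf9 that binds the interferon stimulated response element (ISRE), whereas interferon gamma acts through the gamma activated site (GAS). Most cells, hepatocytes and Kupffer cells among them, express interferon stimulated genes at a low tonic level that infection or inflammation raises.

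The arrays lay on 3 slides. Floxed mice 1 to 4 were on slide 1, LKO mice 3 to 6 were on slide 3, and the 4 remaining mice, Floxed 5 and 6 with LKO 1 and 2, shared slide 2. Slide 2 alone held both genotypes, and on the other slides slide and genotype cannot be told apart. Between 21614 and 24252 probes per array were well above background. All 10 hepatocyte markers were well above background in every mouse and none of them was called by the criterion used below. Among them Serpina1a read alike in all mice after quantile normalization, so it could not be called. The LKO mean was higher for 2 of the 10, with a median difference of -0.09. The probe of Phgdh read 4.81, 5.17 and 5.50 (lowest, median and highest log2 intensity) in Floxed mice and 4.23, 4.57 and 5.30 in LKO mice. The difference was -0.48 (SE 0.18, limma p = 0.018, adjusted p = 0.451, exact permutation p = 0.035), which counts as called by that criterion. Within slide 2 that difference was -0.05, and with slide as a block it was not called. The probe was dim, at percentile 8.35 of the mean intensity of the genes tested, and whether it lies in the deleted exons was not determined. By quantitative PCR and Western blot the paper reports reduced but not abolished Phgdh in LKO livers.

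The regulatory sequence ahead of these genes is shown first, because the members were chosen as interferon targets. It was searched for the letters of the ISRE and the GAS, and binding was not measured. RefSeq promoters of 300 bases (assembly GRCm38.p6, 250 bases before the start of transcription and 50 after it) were at hand for 9 of the 10 genes, with 2 promoters for Ifit2. Usp18 was not in the table. The core of the ISRE was searched as GAAANNGAAA on both strands, and the core of the GAS as TTCNNNGAA, which reads alike on both strands. An ISRE core was present in 1131 of all 32851 promoters of the table (3.44%) and in 6 of the 10 member promoters (60%). More than 1 such match was present in 3 member promoters, compared with 0.225% of all promoters. These shares describe letters and not binding.

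The stretches around the matches are printed 5′ to 3′ on the strand of the gene, with the ISRE cores in capitals and 25 bases to either side where they lie ahead of the start.
Ifit1 (chr19:34640760-34640838, plus strand): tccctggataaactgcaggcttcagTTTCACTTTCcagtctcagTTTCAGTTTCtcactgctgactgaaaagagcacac
Ifit3 (chr19:34583348-34583441, plus strand): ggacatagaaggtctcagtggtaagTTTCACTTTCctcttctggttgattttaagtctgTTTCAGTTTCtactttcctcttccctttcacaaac
Isg15 (chr4:156200850-156200921, minus strand): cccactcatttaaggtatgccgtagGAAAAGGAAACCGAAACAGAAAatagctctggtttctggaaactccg
Rsad2 (chr12:26456538-26456597, minus strand): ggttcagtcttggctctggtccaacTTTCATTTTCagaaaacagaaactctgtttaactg
Gbp2 (chr3:142620579-142620638, plus strand): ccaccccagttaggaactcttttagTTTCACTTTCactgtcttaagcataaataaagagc
Igtp (chr11:58199497-58199555, plus strand): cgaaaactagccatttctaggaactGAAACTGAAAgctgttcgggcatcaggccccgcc

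Ifit1 and Ifit3 carried 2 separate cores each, read on the opposite strand, and the first core of both genes has the same letters, TTTCACTTTC, which Gbp2 carries as well. In Ifit1 they lay at positions -104 to -95 and -85 to -76, counted from the start of transcription. In Isg15 the capitals are 3 overlapping cores between positions -78 and -57. Igtp held both motifs, an ISRE core at -34 to -25 and a GAS core at -45 to -37, the latter in lower case in the line above. A GAS core was present in 2 of 10 member promoters, those of Igtp and one of Ifit2, and in 8.3% of all promoters. The windows of Irf7, Oasl2 and Ifit2 held no ISRE core in these letters.

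The levels of these transcripts in LKO and Floxed livers were compared with limma. Genes with an unadjusted p under 0.05 count as called, as in the array methods of the study. None of the 9 tested genes was called in LKO livers. Among all genes tested, 8.35% were called, with 4.92% higher and 3.43% lower in LKO mice, and no gene of the array passed after Benjamini-Hochberg adjustment, the smallest adjusted p being 0.132. In 8 of the 9 genes the LKO mean was above the Floxed mean. The median difference of the 9 genes was 0.13 on the log2 scale, compared with -0.0035 over all genes tested. The ranges of both genotypes overlapped for every member, as the plot of the single mice shows.

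**Figure D1:**
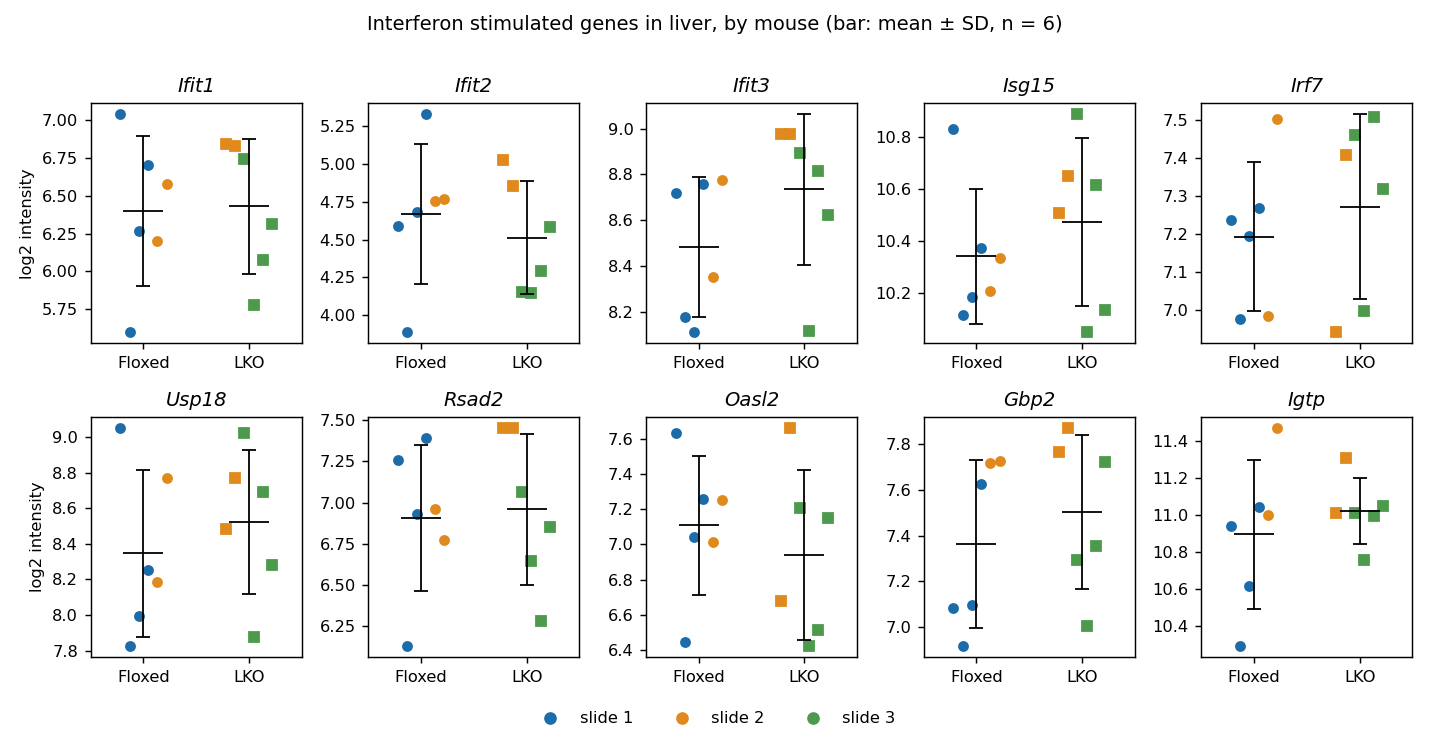
Log2 intensity (quantile-normalized, vertical axis) of each of the 10 genes in 6 Floxed mice (circles) and 6 LKO mice (squares), colored by slide, with mean ± SD as black bars. The points of the genotypes overlap in every panel, and Floxed mouse 2 on slide 1 is the lowest Floxed point in every panel but that of Ifit3.

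The Ifit genes encode proteins with tetratricopeptide repeats that bind viral RNA or restrict its translation. Ifit1 read 5.60, 6.42 and 7.04 (lowest, median and highest) in Floxed mice and 5.78, 6.53 and 6.84 in LKO mice. The highest and the lowest value of all 12 mice were both from Floxed mice, numbers 1 and 2. The difference of the means was 0.03 (SE 0.25, 95% interval -0.50 to 0.56, exact permutation p = 0.903). Ifit3 read 8.11, 8.54 and 8.77 in Floxed mice and 8.12, 8.86 and 8.98 in LKO mice. With 0.25 (SE 0.17, 95% interval -0.11 to 0.62, exact permutation p = 0.184, limma adjusted p = 0.819), it had the largest difference among the 9 genes. Of the LKO mice, 5 lay between 8.63 and 8.98 and LKO mouse 4 lay at 8.12. Without LKO mouse 4 the difference was 0.38, the one setting tried in which a member was called. Ifit2, fitted without the filter on dim probes, read 3.89, 4.72 and 5.33 in Floxed mice and 4.15, 4.44 and 5.03 in LKO mice, a difference of -0.16 (SE 0.23, exact permutation p = 0.513).

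Isg15 is a small protein related to ubiquitin that is conjugated to other proteins, and Usp18 is the protease that removes it and also damps signaling at the type I receptor. Isg15 read 10.12, 10.27 and 10.83 in Floxed mice and 10.05, 10.56 and 10.89 in LKO mice. The difference was 0.13 (SE 0.16, 95% interval -0.21 to 0.47, exact permutation p = 0.444). A second probe of the same transcript gave 0.21 (SE 0.15, 95% interval -0.12 to 0.54), and over the 12 mice the probes followed each other. Usp18 read 7.83, 8.22 and 9.05 in Floxed mice and 7.88, 8.59 and 9.02 in LKO mice, a difference of 0.17 (SE 0.23, 95% interval -0.32 to 0.67, exact permutation p = 0.496). Both genes were highest in the same 2 mice, Floxed mouse 1 and LKO mouse 3, and these belong to different genotypes and slides.

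Irf7 is the transcription factor that amplifies production of type I interferon, and it varied least, lying between 6.94 and 7.51 in all 12 mice. Its difference was 0.08 (SE 0.12, 95% interval -0.19 to 0.35). Rsad2 (viperin) makes a nucleotide analog that blocks viral polymerases, and it read 6.13, 6.94 and 7.39 in Floxed mice and 6.28, 6.96 and 7.45 in LKO mice, a difference of 0.05 (SE 0.24, exact permutation p = 0.835). Oasl2, of the oligoadenylate synthetase family, was the tested member with a lower LKO mean, by -0.17 (SE 0.23, 95% interval -0.66 to 0.33).

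Gbp2 and Igtp (also known as Irgm3) are GTPases that interferon gamma induces and that act at the vacuoles of intracellular pathogens. Gbp2 read 6.92, 7.36 and 7.73 in Floxed mice, and in LKO mice its median was 7.54 and its highest value 7.87, with LKO mouse 4 lowest. The difference was 0.14 (SE 0.19, exact permutation p = 0.496). Igtp read 10.29, 10.97 and 11.47 in Floxed mice and 10.75, 11.01 and 11.31 in LKO mice, a difference of 0.13 (SE 0.17, 95% interval -0.23 to 0.49). The probe of Igtp is printed on 10 spots of each array, which gives a measure of the noise between spots. The SD between spots of 1 array had a median of 0.049 and did not exceed 0.055, whereas the SD between mice of a genotype was 0.311. Spots of 1 array share RNA, labeling, hybridization and slide, so this covers spot noise alone.

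The intervals leave room for moderate changes in either direction. Among the 9 tested genes their lowest bound is 0.631-fold of the Floxed level, for Oasl2, and their highest is 1.59-fold, for Usp18. The narrowest, for Irf7, runs from 0.877-fold to 1.27-fold. Within slide 2, with 2 mice of each genotype and no test, the LKO mean lay above the Floxed mean for 8 of the 10 genes, by 0.59 for Rsad2, 0.45 for Ifit1 and 0.41 for Ifit3. Irf7 and Igtp lay lower there, by -0.07 and -0.08. For the 9 tested genes these are also the differences of a fit with slide as a block, in which none was called. The plot of differences shows them beside those of all 12 mice. On the LKO side they rest on LKO mice 1 and 2, which were among the highest mice for several members. For Irf7, however, LKO mouse 1 was the lowest of all 12 mice.

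**Figure D2:**
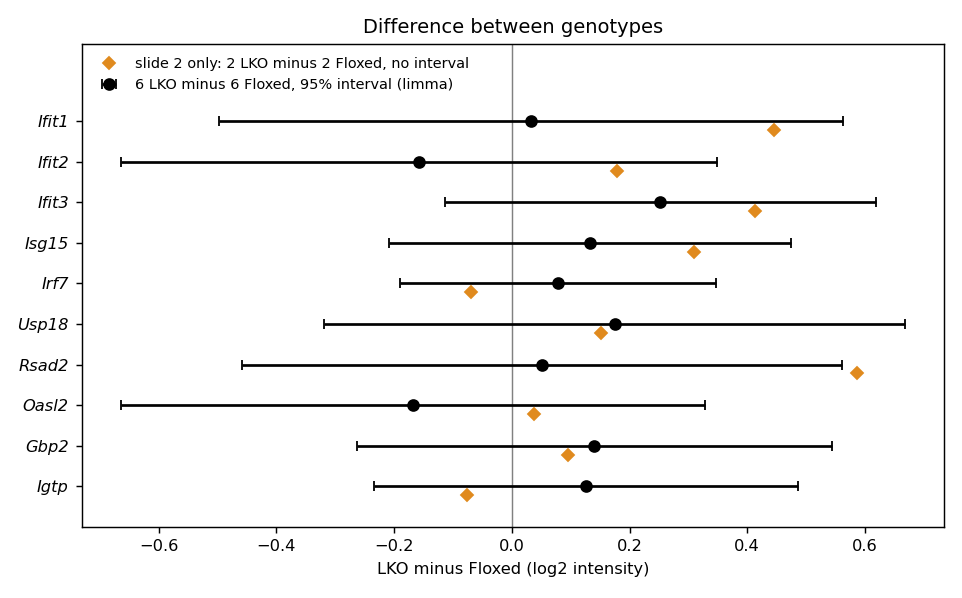
LKO minus Floxed difference of each gene on the log2 intensity scale (horizontal axis), with black points for all 12 mice and bars for the 95% interval from limma, and orange diamonds for slide 2 alone. All bars cross 0, and the diamond of Rsad2 lies at 0.59; Ifit2 comes from the fit without the filter on dim probes.

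The members varied widely between mice of either genotype. From the lowest to the highest mouse Ifit1 spanned 2.72-fold, Rsad2 2.51-fold, Oasl2 2.36-fold, Usp18 2.34-fold and Igtp 2.27-fold, while Irf7 spanned 1.48-fold. The SD within genotypes of Ifit1, Rsad2, Oasl2 and Usp18 lay at percentiles 90.1 to 92.2 of that of all genes tested, and that of Irf7 near the median. To describe a mouse by a single value, the deviations of the 9 tested genes from their means over the 12 mice were averaged. This mean was -0.05 ± 0.31 (SD, n = 6) in Floxed mice and 0.05 ± 0.28 in LKO mice.

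The lowest mouse was Floxed mouse 2 at -0.55, with none of the 9 genes above its mean and 5 of them at their lowest value of all mice. LKO mouse 4 was next at -0.42, again with 0 of 9 genes above the mean. At the other end, LKO mouse 2 stood at 0.39 with all 9 genes above the mean, and 8 of them among the 3 highest values. Floxed mouse 1 followed at 0.26 and LKO mouse 3 at 0.24. Both genotypes thus held a mouse in which nearly all members were low and mice in which most were high. Floxed mouse 2 and Floxed mouse 1 shared slide 1, and LKO mouse 4 and LKO mouse 3 shared slide 3.

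**Figure D3:**
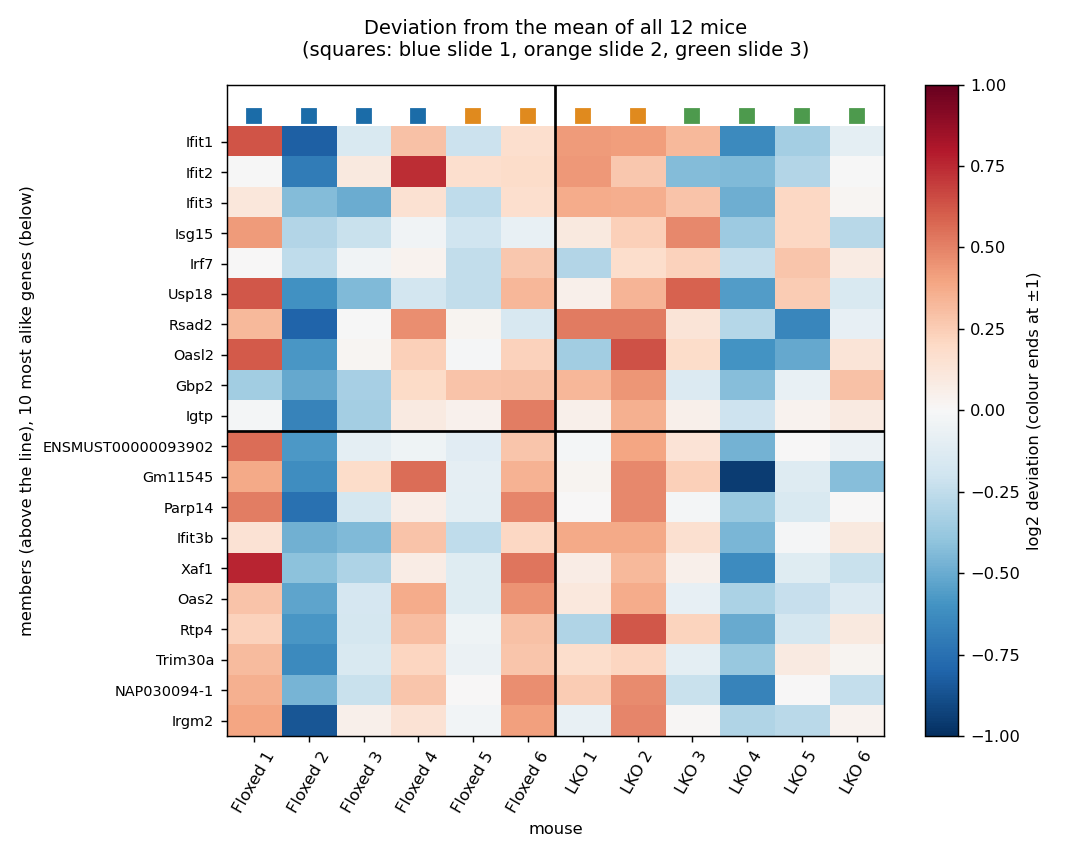
Deviation of each gene from its mean over the 12 mice (log2, red higher and blue lower, color ending at 1 and -1) for the 10 genes above the horizontal line and, below it, the 10 other genes most alike to them, with Floxed mice left and LKO mice right of the vertical line. The columns of Floxed 2 and LKO 4 are blue nearly throughout and that of LKO 2 is red throughout, while squares at the top give the slide.

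Members varied together from mouse to mouse. Correlations were taken over 12 mice between deviations from the genotype mean, so that the genotype difference played no part, and p-values came from 100000 permutations of mice within genotypes, adjusted over the 36 pairs of the 9 tested genes. All 36 pairs had a positive Pearson r, with a median of 0.61, and 26 pairs had r above 0.5. After adjustment 13 pairs passed by Pearson r and 3 by Spearman rho. The closest pair was Isg15 and Usp18 (r = 0.91, adjusted permutation p = 0.0022, rho = 0.91, adjusted permutation p = 0.0047), the modifier and its protease. Without the 2 mice farthest from the median of Isg15 their r was 0.82, and with deviations taken within slide and genotype it was 0.95. Ifit1 and Rsad2 came next (r = 0.87, adjusted permutation p = 0.012, rho = 0.87, adjusted permutation p = 0.015, 0.80 without the 2 farthest mice, 0.83 within slide and genotype).

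The GTPases Gbp2 and Igtp were the remaining pair to pass by both measures (r = 0.79, adjusted permutation p = 0.0040, rho = 0.84, adjusted permutation p = 0.015, 0.68 without the 2 farthest mice, 0.66 within slide and genotype). Gbp2 followed Isg15 far less (r = 0.06, rho = 0.27, adjusted permutation p = 0.879 and 0.444, -0.01 without the 2 farthest mice, 0.06 within slide and genotype). Irf7 and Rsad2 had the lowest value of all pairs (r = 0.01, rho = -0.07, adjusted permutation p = 0.973 and 0.845, 0.15 without the 2 farthest mice, 0.21 within slide and genotype). Whether one r differs from another was not tested.

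**Figure D4:**
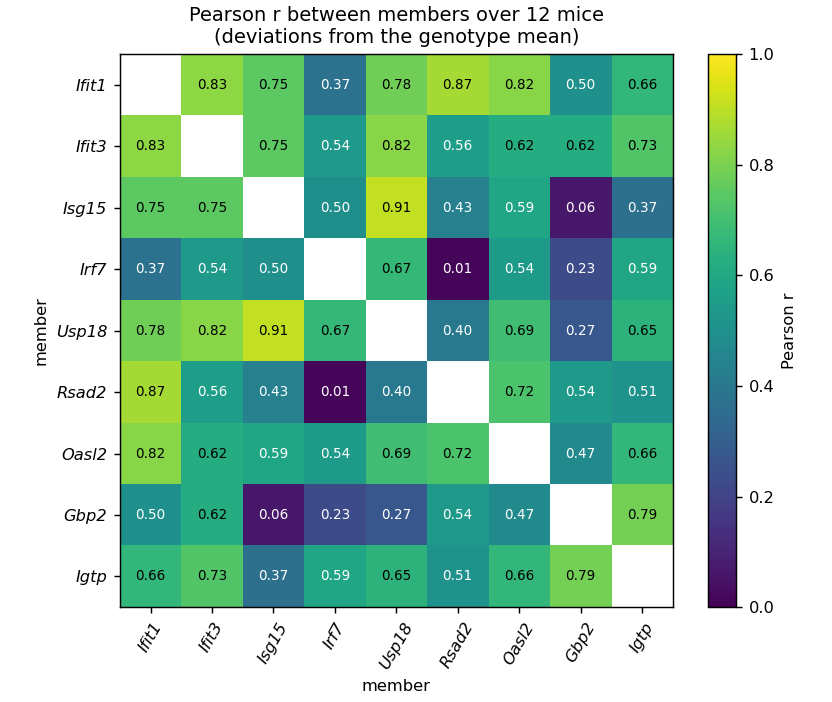
Pearson r between each pair of the 9 tested genes over 12 mice (deviations from the genotype mean), on a color scale from 0 to 1 with the value in each cell. The brightest cell is Isg15 with Usp18 at 0.91, and the darkest cells are Irf7 with Rsad2 at 0.01 and Isg15 with Gbp2 at 0.06.

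The covariation was as large within slides, where 27 pairs had r above 0.5 and the median was 0.66 with deviations taken within slide and genotype. It rested in part on the lowest mice. Without Floxed mouse 2 the count was 18 pairs and without LKO mouse 4 it was 19, whereas without both it was 11 pairs with a median r of 0.36. Against the mean of the other 8 members, Ifit1 had r = 0.92 (rho = 0.86, adjusted permutation p = 9.0e-04 and 0.0079 over 9 relations), with 0.81 without the 2 farthest mice and 0.94 within slide and genotype. The 2 farthest mice in Ifit1 were Floxed mouse 2 and LKO mouse 4. Without these 2 mice Ifit3 against its other 8 had 0.80. Gbp2 against the other 8 went from 0.54 (rho = 0.49, adjusted permutation p = 0.101 and 0.130, 0.48 within slide and genotype) to 0.06 when those 2 mice were left out. They were the 2 mice farthest in Gbp2 as well, so this is 1 omission.

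Other genes of the pathway were taken from lists by role. Among 45 tested interferon stimulated genes other than the members, 26 (57.8%) had r of at least 0.5 with the mean of the 9 members, compared with 6.85% of 16883 genes that are no members. The count stayed close when Floxed mouse 2 and LKO mouse 4 were left out, at 25 of 45 genes, compared with 5.93% of all others. The mean of these 45 genes followed the members with r = 0.96 (rho = 0.95, adjusted permutation p = 3.4e-04 and 0.0012 over 17 lists), with 0.94 without the 2 farthest mice and 0.95 within slide and genotype. Of 13 further interferon gamma GTPases 9 reached 0.5, and 5 did without the 2 lowest mice. Their mean had r = 0.87 (rho = 0.77, adjusted permutation p = 0.0075 and 0.039), with 0.66 without the 2 farthest mice and 0.84 within slide and genotype.

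The 10 genes most alike to the mean of the members, by Pearson r over the 12 mice, were chosen for this value and are given as a description. They were the transcript ENSMUST00000093902 (0.93), Gm11545 (0.92), Parp14 (0.92), Ifit3b (0.92), Xaf1 (0.91), Oas2 (0.91), Rtp4 (0.90), Trim30a (0.90), the design entry NAP030094-1 (0.89) and Irgm2 (0.88). Parp14, an ADP-ribosyltransferase, Xaf1, a regulator of cell death, Oas2, a synthetase of oligoadenylate, and Irgm2, a GTPase, are known interferon targets. Ifit3b is a near copy of Ifit3, so that their probes may read each other's transcript. Parp14 read 8.38 to 9.64 in Floxed mice and 8.75 to 9.60 in LKO mice, and none of the 10 was called between genotypes.

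**Figure D5:**
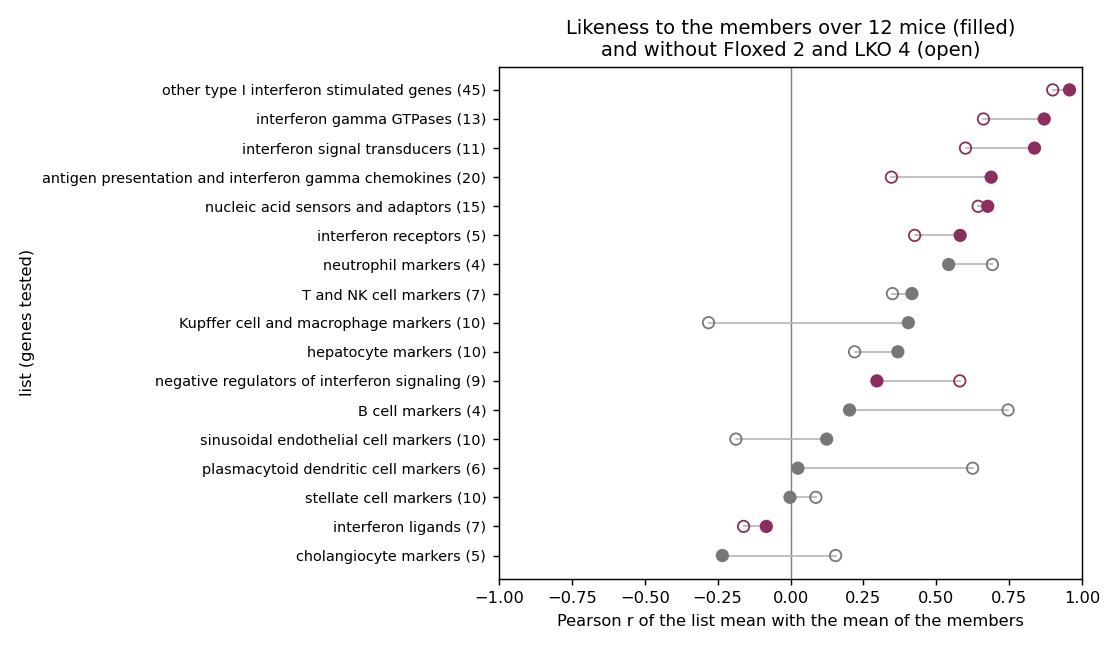
Pearson r (horizontal axis) of the mean of each gene list with the mean of the 9 members, over 12 mice (filled circles) and without Floxed 2 and LKO 4 (open circles), with interferon lists in purple and cell type markers in gray. Other interferon stimulated genes lie at 0.96 and 0.90 and interferon ligands near 0, while the circle of Kupffer cell markers moves from 0.40 to -0.28.

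Interferons are the ligands of the pathway. Of 16 interferon genes on the array 7 were well above background in all mice, and Ifnb1 and Ifng were not. Of these 7 genes 3 were called, all higher in LKO mice and none after adjustment, beside 4.92% higher among all genes: Ifna5 by 0.66 (SE 0.17, limma adjusted p = 0.307), Ifnab by 0.65 (SE 0.16, adjusted p = 0.273) and Ifna1 by 0.42 (SE 0.14, adjusted p = 0.383). Ifna5 read 4.50, 4.68 and 4.92 in Floxed mice and 4.82, 5.47 and 5.79 in LKO mice. Its mean was 5.63 in the LKO mice of slide 3 and 4.85 in those of slide 2, where the Floxed mean was 4.80. Within slide 2 the differences were 0.05, 0.23 and 0.25, and with slide as a block none of the 3 was called. With normexp background correction they shrank to 0.24, 0.34 and 0.13, and all 3 were still called. Their probes were dim, at percentiles 9.59, 19.2 and 5.52 of the mean intensity of the genes tested, and 46.9% of all called genes lay in the dimmest 20%. Genes of interferon alpha are near copies of each other, and their probes may not separate them. None of the 7 ligands reached r of 0.5 with the members, where the share over all other genes, 6.85%, also gives less than 1 of 7.

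The receptors bind these ligands at the cell surface. All 5 tested receptor genes differed by less than 0.05 between genotypes, Ifnar1 by -0.04 (SE 0.15) and Ifngr1 by -0.05 (SE 0.08). Of the 11 kinases, Stat and Irf factors that carry the signal none was called. Irf9 read 9.62, 10.22 and 10.51 in Floxed mice and 9.82, 10.17 and 10.40 in LKO mice, a difference of 0.01 (SE 0.15), and it was lowest in Floxed mouse 2 and LKO mouse 4 of their genotypes. Stat2 read 9.17, 9.97 and 10.32 in Floxed mice, 9.91 to 10.10 in 5 LKO mice and 6.63 in LKO mouse 4. That single spot, which bore no outlier flag, set the difference of -0.44 (SE 0.52, exact permutation p = 0.716), and without LKO mouse 4 the difference was 0.12, again without a call.

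Sensors of nucleic acid induce interferons, and several are interferon targets in turn. None of 15 was called, and 7 had a higher LKO mean. The values furthest from 0 were -0.25 for Ikbke, a kinase upstream of interferon genes (SE 0.19, limma adjusted p = 0.863), -0.24 for Tlr7, a receptor for single-stranded RNA (SE 0.15, adjusted p = 0.779), and 0.23 for Dhx58, a helicase of the RNA sensor family (SE 0.14, adjusted p = 0.752). Of 45 other type I interferon stimulated genes 1 was called, Tor3a, an ATPase of the endoplasmic reticulum, higher in LKO mice by 0.41 (SE 0.16, limma adjusted p = 0.481). Its difference was 0.60 within slide 2 without a call in the fit with slide as a block, 0.33 without Floxed mouse 2 and 0.23 with the mean of its probes, again without a call in both. Of 13 GTPases 1 was called, Gbp9, by 0.49 (SE 0.13, limma adjusted p = 0.307). Its difference was 0.20 within slide 2, without a call with slide as a block, and 0.19 with normexp, where it was still called. These shares, 1 of 45 and 1 of 13, lie near or below the 8.35% of all genes.

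Genes of antigen presentation and of chemokines that interferon gamma induces had 0 of 20 called. The LKO mean was higher for 16 of them, with a median of 0.10. The chemokine Cxcl9 had 0.32 (SE 0.28, limma adjusted p = 0.904) and the chemokine Cxcl10 -0.03 (SE 0.23, adjusted p = 0.990). The lowest value of the list was -0.21 for Nlrc5 (SE 0.19, limma adjusted p = 0.908). The subunits of the immunoproteasome, which cuts peptides for presentation, had 0.31 for Psmb9 (SE 0.17, adjusted p = 0.730), 0.23 for Psmb8 (SE 0.13, adjusted p = 0.728) and 0.12 for Psmb10 (SE 0.10, adjusted p = 0.904). Negative regulators had 0 of 9 called and 2 with a higher LKO mean, with a median of -0.05. Furthest from 0 were Socs3, an inhibitor of Janus kinases, at -0.64 (SE 0.35, limma adjusted p = 0.726) and Socs1, the inhibitor best known for interferon signaling, at -0.24 (SE 0.17, adjusted p = 0.834). Median differences were 0.42 for ligands, -0.04 for receptors, -0.05 for transducers, -0.004 for sensors, 0.03 for other interferon stimulated genes and 0.03 for GTPases, compared with -0.0035 over all genes tested.

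Markers of other liver cells were set beside these values. Of 10 tested Kupffer cell and macrophage markers none was called and 0 had a higher LKO mean, with a median difference of -0.10, and Cd163 was not well above background throughout. Their summed intensity lay between 26832 and 55431 in Floxed livers and between 22391 and 46591 in LKO livers. The mean deviation of these markers, here from the genotype mean, was -0.47 in Floxed mouse 2 and -0.62 in LKO mouse 4, the mice lowest in the members. However, it was 0.74 in Floxed mouse 3, in which the members were low as well. Over 12 mice it followed the members with r = 0.40 (rho = 0.47, adjusted permutation p = 0.413 and 0.318), with 0.91 without the 2 farthest mice, 0.39 within slide and genotype and -0.28 without Floxed mouse 2 and LKO mouse 4.

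Neutrophil markers, of which Ngp, Ltf and Mpo were not well above background throughout, had 0 of 4 called and 0 with a higher LKO mean (median -0.25). They summed to 859 to 1358 in Floxed mice and 513 to 1102 in LKO mice. Their r with the members was 0.54 (rho = 0.60, adjusted permutation p = 0.170 and 0.143, 0.27 without the 2 farthest mice, 0.52 within slide and genotype, 0.69 without Floxed mouse 2 and LKO mouse 4). Their mean deviation from the genotype mean was 0.18 in Floxed mouse 2 and -0.61 in LKO mouse 4. T and NK cell markers had 0 of 7 called, with Cd3g, Cd8a, Gzmb, Ncr1 and Klrb1c not well above background throughout. They summed to 10840 to 40033 in Floxed and 12626 to 24478 in LKO mice, with a mean deviation from the genotype mean of 0.12 in Floxed mouse 2 and -0.48 in LKO mouse 4. The r of T and NK cell markers with the members was 0.42 (rho = 0.41, adjusted permutation p = 0.409 and 0.389, 0.27 without the 2 farthest mice, 0.53 within slide and genotype, 0.35 without Floxed mouse 2 and LKO mouse 4). Plasmacytoid dendritic cells are strong producers of type I interferon, and their 6 tested markers had 0 called and r = 0.03 with the members (rho = 0.18, adjusted permutation p = 0.995 and 0.800, 0.23 without the 2 farthest mice, -0.09 within slide and genotype, 0.62 without Floxed mouse 2 and LKO mouse 4).

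B cell markers had 1 of 4 called, beside 8.35% of all genes tested. The called gene was Fcer2a, the low-affinity receptor for IgE, higher in LKO mice by 0.86 (SE 0.25, limma adjusted p = 0.333). It was 0.32 and not called with slide as a block, and 0.26 and still called with normexp. Cd79a and Pax5 were among those not well above background throughout, and the 4 tested markers summed to 330 to 507 in Floxed and 345 to 478 in LKO mice. Their r with the members was 0.20 (rho = 0.33, adjusted permutation p = 0.740 and 0.517, 0.16 without the 2 farthest mice, 0.13 within slide and genotype, 0.75 without Floxed mouse 2 and LKO mouse 4).

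Sinusoidal endothelial markers had 2 of 10 called in opposite directions, beside 8.35% of all genes tested. Flt4, a receptor for vascular growth factors, differed by -0.42 (SE 0.09, limma adjusted p = 0.257) and Pecam1, a junction protein, by 0.70 (SE 0.18, adjusted p = 0.273). With slide as a block Pecam1 was 0.042 and not called, while Flt4 was -0.40 and called. With normexp Pecam1 was 0.38 and Flt4 -0.15, and both were called. These markers summed to 19065 to 21455 in Floxed and 18832 to 26953 in LKO mice, with r = 0.12 to the members (rho = 0.01, adjusted permutation p = 0.888 and 0.977, 0.48 without the 2 farthest mice, 0.15 within slide and genotype, -0.19 without Floxed mouse 2 and LKO mouse 4). Of stellate cell markers 0 of 10 and of cholangiocyte markers 0 of 5 were called. Single markers also reached r of at least 0.5 with the mean of the members, beside 6.85% of all genes that are no members. These were 4 of 10 Kupffer cell, 3 of 7 T and NK cell and 2 of 4 neutrophil markers. For plasmacytoid dendritic cells it was 1 of 6, for endothelial cells 1 of 10, and for B cells, stellate cells and cholangiocytes 0. The part of these cells in the levels of the members was not tested.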

How the data were processed

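The authors deposited, for each of 12 single-color Agilent arrays, the intensity of every spot (median, local background and a processed intensity corrected for background and spatial trend) without normalization between arrays, and a table of quantile-normalized intensity on a linear scale. Agilent Feature Extraction is given as version 9.5.1.1 in the submitters' processing notes and as 10.7.1.1 in the file headers. The methods and the labels name different RNA kits.

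From these, control spots were left out, log2 of the processed intensity was quantile-normalized over the arrays, outlier spots (0.298%) were set missing and spots of a probe averaged. Probes well above background on all 12 arrays (at least 0.5 of their spots) were kept, because a detection p-value was not at hand. Of 28389 probes with a RefSeq accession 94.2% matched 1 symbol (GRCm38.p6), and the others kept the name of the array design. The array design uses another build, so no probe coordinates are given. The brightest probe stood for a gene. The deposited table lay within 0.1 log2 of these values for 99.98% of its values.

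Genotypes were compared with limma 3.58.1 in R 4.3.3 (lmFit and eBayes, 6 against 6, no covariate), with calls at an unadjusted p below 0.05 and Benjamini-Hochberg adjusted values beside them. Fitting was tested on simulated data. The number of arrays limits the precision. Alternatives covered normalization, background, the deposited table, filters, probe choice, the methods' t-test, slide, replicate number and each array left out. The members and gene lists were chosen with earlier results of these data known. Named are the members, up to 6 called genes of each list, Stat2, Irf9, the 10 genes most alike to the members and Phgdh, and further list genes were named after their values were seen. Some genes that the naming rule includes are not reported here.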

Additional observations from a re-analysis of the deposited data

Results flagged for a closer look

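In groups of 6 mice, the distance of the highest or lowest mouse to its neighbor was compared with the range of the group for the members, the other genes named by rule and the mean of the members. Of 60 such groups 4 held a mouse far from the others, where chance gives about 1 in 20, or 3. Isg15 in Floxed mouse 1 was 10.83, with 10.12 to 10.37 in the other Floxed mice. Irgm2 in Floxed mouse 2 was 9.61, with 10.44 to 10.87 in the others. Ifna1 in Floxed mouse 1 was 4.88, with 4.29 to 4.48 in the others. Stat2 in LKO mouse 4 was 6.63, with 9.91 to 10.10 in the other LKO mice, a gap of 0.945 of the range. Stat2 has 1 probe on 1 spot here, without an outlier flag, and whether the spot or the transcript was low was not tested.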

How the results depend on the processing

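Over 208 values of members under alternatives, 194 kept their direction and stayed without a call. The methods' t-test, the replicate block, the filters and keeping flagged spots left the difference of each member unchanged. Direction was thus fixed in these settings, and they bear on the calls alone. In other settings some values changed sign. Ifit1 was -0.049 with normexp and -0.0046 with slide as a random block, and with slide as a fixed block Igtp was -0.076, Irf7 -0.069 and Oasl2 0.037. With single mice left out, Ifit1 ranged from -0.13 to 0.16, Rsad2 from -0.11 to 0.19, Ifit3 from 0.18 to 0.38 (called without LKO mouse 4), Isg15 from 0.05 to 0.23, Usp18 from 0.07 to 0.32, Irf7 from 0.03 to 0.14, Oasl2 from -0.31 to -0.06, Gbp2 from 0.05 to 0.24 and Igtp from 0.006 to 0.24. The count of called members was 0 in each other setting and 0 to 1 with single mice left out. Over all genes 1413 were called, 58.9% of them higher in LKO mice (78.1% of 1443 with scaling to the 75th percentile), 2791 without the filter on dim probes, 317 with slide as a fixed block, 0 after adjustment and 1103 to 1838 with single mice left out. Member pairs with r above 0.5 numbered 26, 18 to 28 with single mice left out and 11 without both Floxed mouse 2 and LKO mouse 4, a choice made after seeing the data. Same-numbered mice of both genotypes carry neighboring animal numbers in the labels, but the labels do not say that a number marks a litter, and their deviations correlated from -0.24 to 0.32, above 0.1 in 3 of 6 pairs, so a pairing was not established. With a replicate block 1428 genes and 0 members were called.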
